A study of Mus musculus with 24 samples.

Results

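Light was compared with dark in the visual cortex of mice that had received psilocybin. The comparison used 12 of the 24 RNA-seq libraries of the study, those of the 6 psilocybin-light mice (libraries 19 to 24) and the 6 psilocybin-dark mice (libraries 7 to 12), with 1 library per mouse. Libraries were chosen by their number and by the exposure that the headings of the count table in the paper's supplement give them. In the sample labels the drug is the same but light and dark are exchanged, in all 24 libraries and so also in those of the PBS mice below. If the labels hold, each difference below changes sign and keeps its size and its p-value.

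Both groups were male C57BL/6J mice of 8 to 10 weeks from a reversed light cycle, handled in their dark phase and injected i.p. with psilocybin at 5 mg/kg. The psilocybin-light mice were then kept in light for 2.5 h and the psilocybin-dark mice stayed in the dark. The other 12 mice received PBS (0 mg/kg). By the same headings they were kept in the dark (libraries 1 to 6) or in light (libraries 13 to 18). They entered the same fit and gave the light effect without drug, which shares no mouse with the effect under psilocybin. Bulk tissue of the visual cortex (V1) was used, so each value is a mixture of all its cell types. A lower level of a cell type's genes can mean fewer of its cells or less RNA per cell, which cannot be told apart.

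Psilocybin is converted in the body to psilocin, an agonist of serotonin receptors that excites cortical pyramidal neurons through the 5-HT2A receptor. In a visual cortex kept in the dark, the return of light drives neuronal firing, and firing opens calcium channels and activates kinases that phosphorylate CREB and the serum response factor complex on genes held ready for transcription. The immediate early genes switched on in this way code for transcription factors such as Fos and Npas4 and for effector proteins such as Arc, and later waves code for secreted factors such as BDNF.

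Library totals were similar in both groups, from 13552516 to 17696207 counts in psilocybin-dark mice and from 14558979 to 17566718 in psilocybin-light mice. Library 12, from a psilocybin-dark mouse, stood apart. On the first principal component of the 12 libraries, which held 37.3% of the variance, it lay at -60.8 while the other 11 lay between -14.6 and 17.4. Its summed normalised count over 11 marker genes of the cerebellum was 37270. The next psilocybin-dark library, 9, reached 2404, and the psilocybin-light libraries lay between 594 and 1962, the highest being library 23. The 11 markers had a median log2 fold change of -3.02 and none of them passed the test. The hippocampal marker sums overlapped between the groups, at 1678 to 4498 in the dark and 1878 to 2986 in light. Red blood cell genes were raised in 1 mouse of each group, library 10 (4710) and library 19 (6276).

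Light under psilocybin changed many genes by small amounts. Of 14464 genes tested, 923 differed between psilocybin-light and psilocybin-dark mice (6.38%, edgeR quasi-likelihood test, adjusted p under 0.05), with 376 higher in light (2.60%) and 547 lower (3.78%). Their absolute log2 fold changes had a median of 0.26, with 823 genes under 0.5 and 7 at 1 or more. The 6 and the 6 mice did not overlap for 928 of all genes tested (6.42%) and for 592 of the 923. Genes higher in light included ribosomal, respiratory chain and immediate early genes, and genes lower in light included transcription coregulators, insulin and IGF receptor genes and some chaperones of the endoplasmic reticulum (ER), as counted below by list. Single mice moved this count. It was 612, 601 or 585 without library 10, 19 or 24, was 1048 without library 12, and fell to 383 (128 higher, 255 lower) without libraries 9, 12 and 23 together, which leaves 4 dark and 5 light mice.

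Immediate early transcription factors, listed with some related regulators such as Btg2, held several of the largest rises. Of 25 genes tested in this list, 5 were higher in psilocybin-light mice, against 2.60% of all genes tested. None was lower (3.78% of all) and 20 did not pass the test. The median log2 fold change was 0.15, against -0.01 for all genes tested. The 5 were Junb, Fos, Ier2, Btg2 and Npas4. The list had 3 higher genes without libraries 9, 12 and 23, and 2 with a median of -0.03 when offsets for exon length and GC content were fitted with library 12 left out, where Fos and Ier2 did not pass (adjusted p up to 0.0783 and 0.0671). Of 30 early effector genes, 2 were higher (Ccn1 and Dusp1) and 2 lower (Bdnf and Pcsk1), with a median of -0.04. Promoter sites for CREB and serum response factor are the textbook route from firing to transcription. The sequences just upstream of 5 of these 9 genes are therefore shown. They are the 250 bases before the RefSeq transcription start (GRCm38.p6), for the genes with the smallest p among the 8 of 9 with an entry. Bdnf, listed with 7 starts, was left out, and Ier2 had no entry. Capitals mark the full cAMP response element (CRE) TGACGTCA, its shorter form TGACG on either strand, and the EGR motif GCGNGGGCG.
Junb (chr8:84978749-84978998, minus strand): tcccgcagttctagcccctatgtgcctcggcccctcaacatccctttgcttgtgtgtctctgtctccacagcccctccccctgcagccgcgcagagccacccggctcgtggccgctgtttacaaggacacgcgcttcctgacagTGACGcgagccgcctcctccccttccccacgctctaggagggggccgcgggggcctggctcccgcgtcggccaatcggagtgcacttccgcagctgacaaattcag
Btg2 (chr1:134079156-134079405, minus strand): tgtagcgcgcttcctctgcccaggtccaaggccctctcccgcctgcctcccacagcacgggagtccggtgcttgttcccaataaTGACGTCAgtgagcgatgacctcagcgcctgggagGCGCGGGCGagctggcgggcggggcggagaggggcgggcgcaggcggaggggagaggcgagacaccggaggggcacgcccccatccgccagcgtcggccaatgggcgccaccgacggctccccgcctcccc
Fos (chr12:85473640-85473889, plus strand): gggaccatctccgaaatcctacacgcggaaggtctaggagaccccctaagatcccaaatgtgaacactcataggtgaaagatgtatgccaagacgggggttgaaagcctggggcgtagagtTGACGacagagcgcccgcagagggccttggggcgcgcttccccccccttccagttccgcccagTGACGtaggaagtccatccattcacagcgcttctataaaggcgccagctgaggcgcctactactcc
Ccn1 (chr3:145649986-145650235, minus strand): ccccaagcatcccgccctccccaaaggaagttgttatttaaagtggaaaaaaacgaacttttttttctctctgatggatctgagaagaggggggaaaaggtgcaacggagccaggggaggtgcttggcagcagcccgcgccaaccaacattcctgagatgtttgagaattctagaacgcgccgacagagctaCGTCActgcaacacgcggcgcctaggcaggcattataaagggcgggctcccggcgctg
Pcsk1 (chr13:75089607-75089856, plus strand): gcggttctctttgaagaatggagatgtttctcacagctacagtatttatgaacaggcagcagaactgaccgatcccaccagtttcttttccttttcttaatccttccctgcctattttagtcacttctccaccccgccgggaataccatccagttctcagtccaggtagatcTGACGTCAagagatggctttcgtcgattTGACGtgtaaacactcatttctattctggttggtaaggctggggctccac

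A full CRE stands 166 bases before the start of Btg2 and 78 bases before that of Pcsk1, so it is found in a gene that rose and in a gene that fell. The shorter form stands outside a full CRE in Junb, in Fos (at 129 and 66 bases before the start), in Ccn1 and in Pcsk1. Among 32817 mouse promoter windows of the same length, the full CRE was found in 1.55% and the shorter form in 17.7%, on either strand, every full CRE holding the shorter form on each strand. The EGR motif of Btg2 was found in 4.70% of windows. The AP-1 motif TGANTCA (6.75%) and the CArG box (1.47%) were searched for too and had no match in these 5 windows. The window before the first listed start of Bdnf, not shown, was also searched and had no match to any of these motifs. Bases further upstream were not searched, so this does not show that these genes lack such sites. A match is a description of these letters and not of binding.

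Junb, which codes for an AP-1 subunit, had normalised counts of 859 to 1433 in psilocybin-dark mice (median 1170) and of 1891 to 3957 in psilocybin-light mice (median 2518). All 6 light mice lay above all 6 dark mice, and the log2 fold change was 1.18 ± 0.25 (SE, adjusted p = 0.00594). Fos, the partner of Jun proteins in AP-1, ranged from 339 to 675 in the dark (median 600) and from 720 to 1604 in light (median 943), again without overlap (0.94 ± 0.22, adjusted p = 0.0131). Ier2, an immediate early nuclear protein, rose from a median of 185 (173 to 237) to 321 (277 to 473), with a log2 fold change of 0.83 ± 0.19. Btg2, an antiproliferative cofactor of mRNA decay, showed the widest spread in light, from 283 to 933 (median 512), against 227 to 344 in the dark (median 265). Its lowest light mice lay within the dark range, 4 of 6 lay above it, and its log2 fold change was 1.00 ± 0.23. Npas4, a factor restricted to neurons and induced by calcium entry, ranged from 249 to 353 in the dark (median 332) and from 348 to 1037 in light (median 527), with 5 of 6 light mice above every dark mouse. Its log2 fold change of 0.95 ± 0.27 had an adjusted p of 0.0374. That call was lost when any of libraries 7 to 11 or 19 to 21 was left out, the highest adjusted p over all alternatives being 0.111.

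Egr1, Arc and Fosb, which the study names with Npas4 as light-responsive, did not pass the test under psilocybin. For these genes the study reports that both exposures together gave no significant increase over either alone. The Npas4 call above, which was lost without single libraries, differs from that. Arc, a protein of the postsynaptic density, ranged from 2159 to 8377 in the dark and from 8352 to 14940 in light, with 5 of 6 light mice above all dark mice and a log2 fold change of 0.80 ± 0.29 (adjusted p = 0.106). Egr1, a zinc finger transcription factor, overlapped more, at 4485 to 8590 and 6751 to 11720 (0.40 ± 0.22, adjusted p = 0.328). Fosb, a further AP-1 subunit, had a lower median in light (685) than in the dark (872), with a log2 fold change of -0.27 ± 0.27 (adjusted p = 0.632).

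Among the effectors, Ccn1, a secreted matricellular protein, rose from a median of 126 (94.1 to 154.7) to 210 (157 to 343), with no overlap and a log2 fold change of 0.94 ± 0.24. Dusp1, a phosphatase that inactivates MAP kinases, rose by 0.61 ± 0.16, and the lowest light mouse (857) lay just above the highest dark mouse (841). Bdnf, the neurotrophin, went the other way, from a median of 1284 in the dark (816 to 1469) to 718 in light (617 to 1012). The log2 fold change of Bdnf was -0.67 ± 0.16 (adjusted p = 0.0123), and 4 of 6 light mice lay below all dark mice. Pcsk1, the prohormone convertase that cleaves neuropeptide precursors, also fell, from a median of 2093 (1488 to 2397) to 1394 (1140 to 1600), a log2 fold change of -0.52 ± 0.14. Ccn1 and Dusp1 no longer passed with offsets for exon length and GC content (adjusted p up to 0.101 and 0.148 over the alternatives), nor did Pcsk1 (up to 0.0632). Single libraries also ended calls, 20 for Ccn1, any of 7, 9, 12, 20 or 21 for Dusp1 and any of 8, 10, 11, 19 or 23 for Pcsk1, and without library 20 no effector was called higher. Bdnf, Junb and Btg2 kept an adjusted p under 0.05 in every other fit tried.

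**Figure D1:**
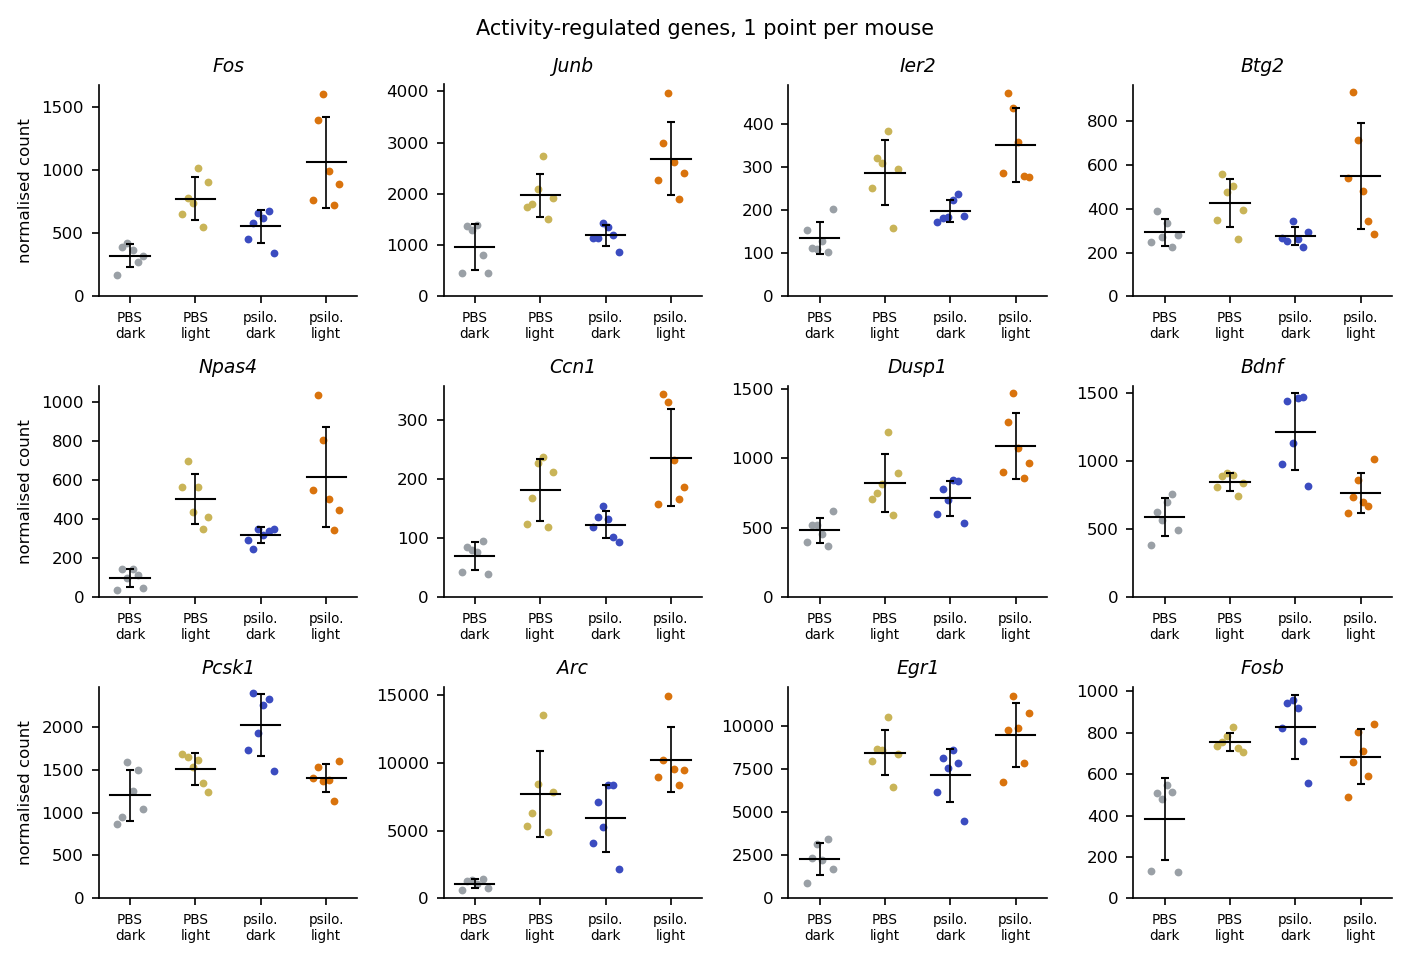
Normalised counts of 12 activity-regulated genes (y axis, linear from 0) in the 4 groups, with 1 point per mouse, a line at the mean of 6 mice and bars of 1 SD. The psilocybin-light points of Junb (1891 to 3957) lie above all psilocybin-dark points (859 to 1433), those of Bdnf lie mostly below, and those of Egr1 and Fosb overlap.

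The cytosolic ribosome rose as a group. Of 78 ribosomal protein genes tested, 55 were higher in psilocybin-light mice and none was lower, with a median log2 fold change of 0.23, where 2.60% of all genes tested were higher. All 78 had a positive log2 fold change, from 0.02 to 0.47. Rpl31, a protein of the large subunit, had 1067 to 1160 normalised counts in the dark (median 1092) and 1466 to 1679 in light (median 1507), a log2 fold change of 0.47 ± 0.07 (adjusted p = 0.00058). Rpl38 (large subunit) rose by 0.42 ± 0.06 and Rps25 (small subunit) by 0.34 ± 0.05, each with the light mice above all dark mice. Many ribosomal protein genes have near-identical pseudogenes, so how reads were divided between copies can affect single members. Of 77 mitochondrial ribosomal protein genes, 10 were higher and none lower, with a median of 0.11.

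The respiratory chain showed the same direction in both genomes. Of 83 subunit genes encoded in the nucleus, 36 were higher, against 2.60% of all genes tested, none was lower and 47 did not pass, with a median log2 fold change of 0.16. Uqcr10 of complex III rose from a median of 934 (863 to 1041) to 1167 (1065 to 1222), by 0.30 ± 0.05. Ndufa2 of complex I rose by 0.31 ± 0.06, a call lost with length and GC offsets (log2 fold change 0.15, adjusted p = 0.125), and Sdhb of complex II rose by 0.12 ± 0.03 from a median of 1662 (1589 to 1721) to 1804 (1761 to 1850). As ratios of light to dark these 3 changes were 1.23, 1.24 and 1.09. Of 8 mitochondrially encoded subunits tested, 7 were higher, with a median of 0.45. mt-Co1, the catalytic subunit of complex IV, had 111500 to 130000 normalised counts in the dark (median 116400) and 130400 to 199800 in light (median 168800), a log2 fold change of 0.49 ± 0.10 (adjusted p = 0.00574). The light mice varied more than the dark mice for mt-Co1, with an SD of 24700 against 6990. mt-Nd1 and mt-Cytb both rose by 0.48. Mtln, a microprotein of the inner mitochondrial membrane, rose by 0.32 ± 0.05, and Gpx4, which reduces lipid peroxides, by 0.29 ± 0.05.

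Of 37 proteasome subunits, 7 were higher (2.60% of all genes), 1 was lower (3.78%) and 29 did not pass, with a median of 0.07, and 4 were higher without library 8 or 24 and 3 with no filter on low counts. Psmb1, a subunit of the core particle that the study names, rose from a median of 1507 (1441 to 1557) to 1728 (1639 to 1895), a log2 fold change of 0.22 ± 0.04 (adjusted p = 0.00361). Psma7 rose by 0.23 ± 0.04 and Psmb5 by 0.24 ± 0.05, both also of the core, and Psmb5 did not pass with length and GC offsets (adjusted p up to 0.297). Psmd11, of the regulatory lid, fell by 0.19 on the log2 scale, with all 6 light mice below all 6 dark mice.

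Over all genes tested, the light effect varied with transcript length and base composition. The 376 genes higher in light had a median exon length of 3480 bases and a GC content of 52.5%, the 547 lower genes 9721 bases and 44.4%, and all genes tested 6331 bases and 48.9%, over the union of their annotated exons. Between the decile of genes with the shortest exons and the decile with the longest, the median log2 fold change fell from 0.10 to -0.092. The shortest decile held 117 genes called higher and 8 called lower, and the longest decile 3 and 158. From the lowest to the highest decile of GC content it went from -0.084 to 0.064. The light effect without drug showed the same slopes, from 0.052 to -0.0997 over length and from -0.077 to 0.080 over GC content. The cytosolic ribosomal, nuclear respiratory chain and mitochondrially encoded lists had median exon lengths of 2850.5, 3927 and 1091 bases, shorter than that of all genes, and median GC contents of 49.8%, 48.9% and 36.4%, near or below it. With offsets for length and GC content fitted in each library, 512 genes were called, 432 of which were among the 923. The counts of higher members were then 34 of 78 for cytosolic ribosomal proteins, 21 of 83 for nuclear respiratory chain genes and 6 of 8 for mitochondrially encoded ones. Without libraries 9, 12 and 23 they were 20, 10 and 1, although the medians of these 3 lists stayed at 0.20, 0.16 and 0.43. Nuclear respiratory chain genes numbered 23 or 22 without library 9 or 10, and mitochondrial ribosomal ones 4 without library 7, 10, 19 or 24.

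**Figure D2:**
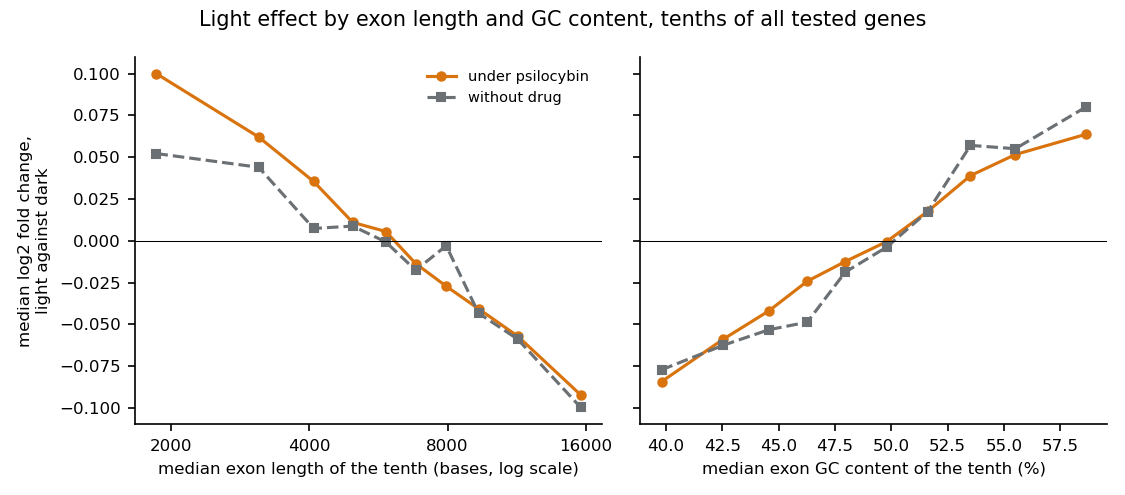
Median log2 fold change of light against dark (y axis) in deciles of all genes tested, ordered by union exon length (left, log axis in bases) or exon GC content (right, percent), under psilocybin (circles) and without drug (squares). Under psilocybin the median falls from 0.10 in the shortest decile to -0.092 in the longest, and both lines rise with GC content.

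Circadian clock genes changed in both directions. The clock is a feedback loop in which the factors CLOCK and BMAL1 drive the Per and Cry repressors and output factors such as Dbp and Tef, while Nfil3 represses the sites that Dbp and Tef activate. Of 16 clock genes tested, 4 were higher (Dbp, Tef, Per3 and Bhlhe41, against 2.60% of all genes), 3 were lower (Bmal1, Clock and Nfil3, against 3.78%) and 9 did not pass, with a median of 0.10. Dbp rose from a median of 451 (392 to 582) to 719 (631 to 860), with no overlap and a log2 fold change of 0.60 ± 0.12 (adjusted p = 0.0054). Tef rose by 0.30 ± 0.08 from a median of 6114 (5191 to 7104) to 7580 (7245 to 8138), also without overlap. Per3, a period gene, rose by 0.28 ± 0.07 and Bhlhe41, a repressor of CLOCK and BMAL1 targets, by 0.33 ± 0.08. Bmal1 fell from a median of 869 (807 to 973) to 690 (636 to 725), a log2 fold change of -0.36 ± 0.07 (adjusted p = 0.00219), and Clock from 2130 (1870 to 2242) to 1708 (1643 to 1867), by 0.27 on the log2 scale. All 6 light mice lay below all 6 dark mice for both partners, and for Clock the highest light mouse (1867) lay next to the lowest dark mouse (1870). Nfil3 fell by 0.40 on the log2 scale with overlapping groups (316 to 471 and 230 to 358). Bmal1 and Dbp passed at 0.05 under every alternative tried. The other calls did not all hold, and without libraries 9, 12 and 23 the list had 1 higher and 2 lower genes. Without library 19 it had 1 lower gene.

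**Figure D3:**
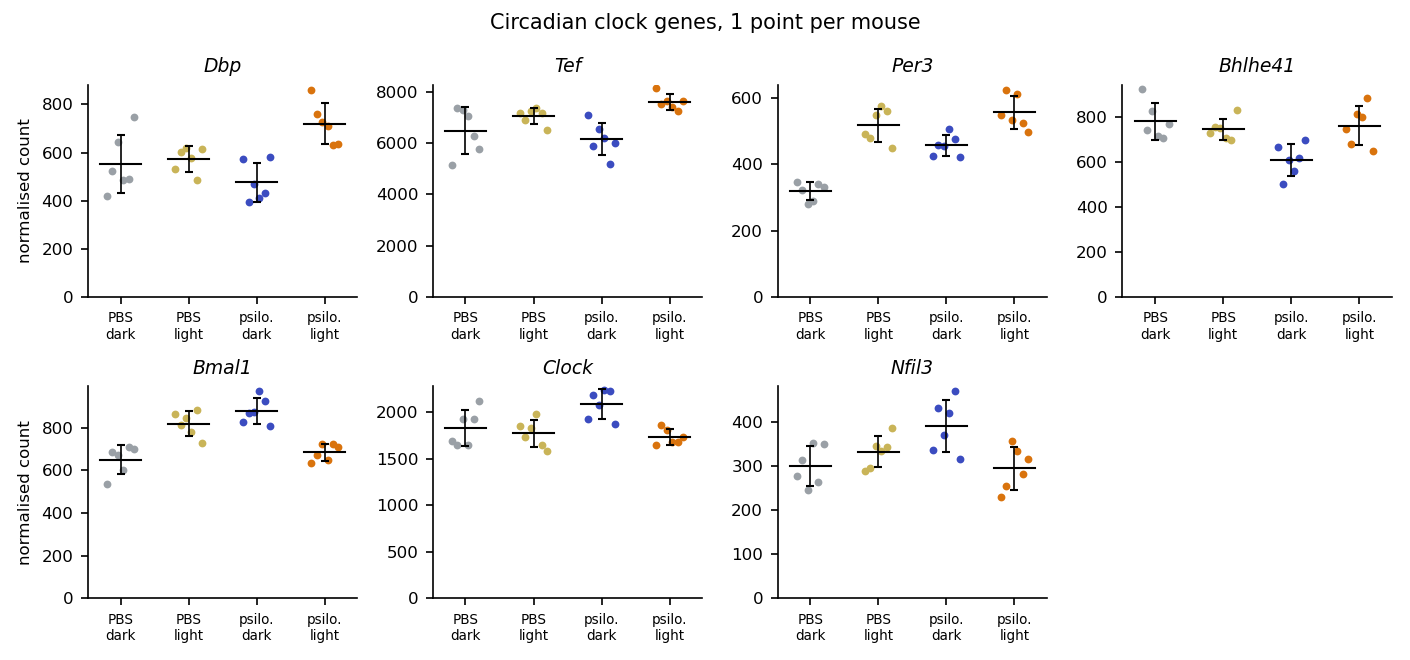
Normalised counts of the 7 clock genes called under psilocybin (y axis, linear from 0) in the 4 groups, with 1 point per mouse, a line at the mean and bars of 1 SD. The mean of Dbp is highest in psilocybin-light mice, where all points of Bmal1 lie below the psilocybin-dark points, and among PBS mice Bmal1 is higher in light.

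Transcription coregulators and chromatin genes that passed the test were all lower. Of 42 tested, 11 were lower in psilocybin-light mice, against 3.78% of all genes tested, none was higher and 31 did not pass, with a median log2 fold change of -0.10. The study had picked Top1, Crebbp and Hdac5 from these libraries, so those 3 are not independent of its choice. Crebbp (chr16:3899192-4031861 in GRCm39), the acetyltransferase that binds phosphorylated CREB, had 950 to 1041 normalised counts in the dark (median 977) and 546 to 649 in light (median 630). The groups lay far apart, with a log2 fold change of -0.67 ± 0.11 (adjusted p = 0.00145). Top1, the topoisomerase that relieves supercoils ahead of the polymerase, fell from a median of 2009 (1965 to 2185) to 1665 (1582 to 1699), by 0.30 on the log2 scale. Hdac5, a class IIa histone deacetylase, fell by 0.21 with overlap (3261 to 3750 and 2916 to 3323), and its adjusted p of 0.0355 rose to 0.0996 at most when alternatives were tried. Hdac4, of the same class, fell by 0.57 from a median of 1301 (1096 to 1467) to 851 (731 to 1025). Kmt2d, a histone methyltransferase of enhancers, fell by 0.37, without overlap between groups. The 42 genes had a median exon length of 11517 bases, and with length and GC offsets 9 were lower and 1 was higher. Without libraries 9, 12 and 23, 5 were lower.

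Of 42 splicing regulators, 4 were lower (3.78% of all genes tested) and none higher (2.60%). None was called with length and GC offsets or without libraries 9, 12 and 23. Only 1 or 2 were called when any one of libraries 7 to 10, 12, 19 to 21, 23 or 24 was left out.

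Receptors and a substrate of insulin signalling were lower. Of 12 genes of the insulin-like growth factor system, 3 were lower (3.78% of all genes) and none was higher, with a median of -0.25. Igf1r, the type 1 IGF receptor and a gene the study names, fell from a median of 1396 (1190 to 1621) to 994 (919 to 1146), a log2 fold change of -0.48 ± 0.10 (adjusted p = 0.00652). Insr, the insulin receptor, showed little spread, at 795 to 854 in the dark and 662 to 702 in light, and fell by 0.27. Irs1, a substrate of both receptors, fell by 0.59 from a median of 220 (183 to 229) to 145 (114 to 155). For each of these 3 genes the 6 light mice lay below the 6 dark mice.

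Some genes of protein folding in the ER were lower. Of 18 ER chaperones, 4 fell (3.78% of all genes), none rose and 14 did not pass, with a median of -0.14, and 7 were lower without library 12. Canx, the membrane lectin that holds unfolded glycoproteins, fell from a median of 7367 (6919 to 7472) to 5819 (5655 to 5954), a log2 fold change of -0.31 ± 0.05 (adjusted p = 0.000727). Calr, its soluble counterpart, fell by 0.19, a call that was lost in many alternatives (adjusted p up to 0.135). Pdia4, a disulfide isomerase, fell by 0.49, and Dnajc3, a cochaperone of BiP, by 0.27. Outside the list, 3 of the 8 genes with the smallest p among those lower in light act on the same sugars. Gfpt1 (chr6:87019801-87069179 in GRCm39), the rate-limiting enzyme of the hexosamine pathway that makes their precursor, had the smallest p of all genes. Its counts were 1363 to 1430 in the dark (median 1402) and 1144 to 1209 in light (median 1173), a log2 fold change of -0.26 ± 0.03 (adjusted p = 9.23e-05). Stt3a, the catalytic subunit of the oligosaccharyltransferase, fell by 0.33 ± 0.05, and Edem3, which trims mannose from glycoproteins due for degradation, by 0.26 ± 0.03. These 3 were named for their p-values and their grouping was made after their values were seen.

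The other genes with the smallest p were of mixed function. Among those higher was Xylt2 (0.28 ± 0.04), which starts glycosaminoglycan chains. Among those lower were Ddx6 (-0.49 ± 0.06), an RNA helicase of decapping and translational repression, Larp1 (-0.24 ± 0.04), which binds mRNAs of ribosomal proteins, Afap1 (-0.64 ± 0.09), which binds actin filaments, and Zhx3 (-0.39 ± 0.05), a zinc finger and homeobox factor. None of these 5 genes overlapped between groups, and all 5 kept an adjusted p under 0.05 in every other fit tried.

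The genes with the largest fold changes and no overlap, apart from those above, were also of mixed function. Bc1, a noncoding RNA of dendrites, rose from a median of 3792 (3143 to 5157) to 6864 (6316 to 8286), a log2 fold change of 0.83 ± 0.18. Dpysl2, which binds tubulin in growing axons, fell from a median of 2715 (2574 to 2772) to 1471 (1373 to 1679), a log2 fold change of -0.84 ± 0.14 (adjusted p = 0.00148). Hipk2, a nuclear kinase, fell by 0.84 and Shc3, an adaptor of receptor tyrosine kinases in neurons, by 0.81. Foxn3, a forkhead repressor, fell by 0.84 and Mcc, a gene mutated in colorectal cancer, by 0.89, but both calls were lost without library 12, as well as under other alternatives, with adjusted p up to 0.16. Slc4a11, a membrane transporter at low level, rose from a median of 39.2 (30.8 to 43.9) to 85.7 (53.5 to 100.9), a log2 fold change of 1.12 ± 0.26. Wdr89 fell by 0.83 and the unprocessed pseudogene Gm13340 rose by 0.95, the latter with reads that may come from a near-identical copy.

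Some postsynaptic scaffolds were lower. Of 18 tested, 3 were lower (3.78% of all genes), none was higher and 15 did not pass, namely Shank2 (-0.44 ± 0.09), a scaffold of glutamate receptors, and the adhesion proteins Nlgn2 (-0.26 ± 0.06) of inhibitory synapses and Nlgn3 (-0.62 ± 0.15). Shank2 had 4036 to 4828 normalised counts in the dark and 2925 to 3460 in light. The list had a median of -0.21, with 1 lower gene without libraries 9, 12 and 23. It had 10 lower genes with 1 surrogate variable or the cerebellar marker score (mean log2 level of the markers) as a covariate.

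The summed level of astrocyte markers was lower, with Slc1a2 as a large part of it. Of 10 astrocyte markers, 3 fell (3.78% of all genes), none rose and 7 did not pass, with a median of -0.19. Sox9, the transcription factor of astroglia, fell from a median of 461 (421 to 487) to 279 (258 to 317), a log2 fold change of -0.69 ± 0.10 (adjusted p = 0.00086). Gja1, the gap junction protein connexin 43, fell by 0.48 with library 23 in the dark range, and Slc1a2, the main glutamate transporter, fell by 0.51 from a median of 45610 (33280 to 49980) to 30870 (29820 to 34230). The call of Slc1a2 was lost when any one of libraries 7 to 11 or 20 to 24 was left out and with length and GC offsets (adjusted p up to 0.0704). Gfap, Aqp4, Aldh1l1, Slc1a3, Aldoc, S100b and Fgfr3 did not pass. The summed level of the 10 markers was 78180 to 91030 in psilocybin-dark and 61660 to 70600 in psilocybin-light mice, without overlap. It was 69650 to 85570 over the PBS mice. Slc1a2 made up much of the sum, with medians of 45610 in the dark and 30870 in light. The medians of the sum were 80800 and 63950. A sum without Slc1a2 was not tested. The part of the lower astrocyte sum in the other results was not tested.

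**Figure D4:**
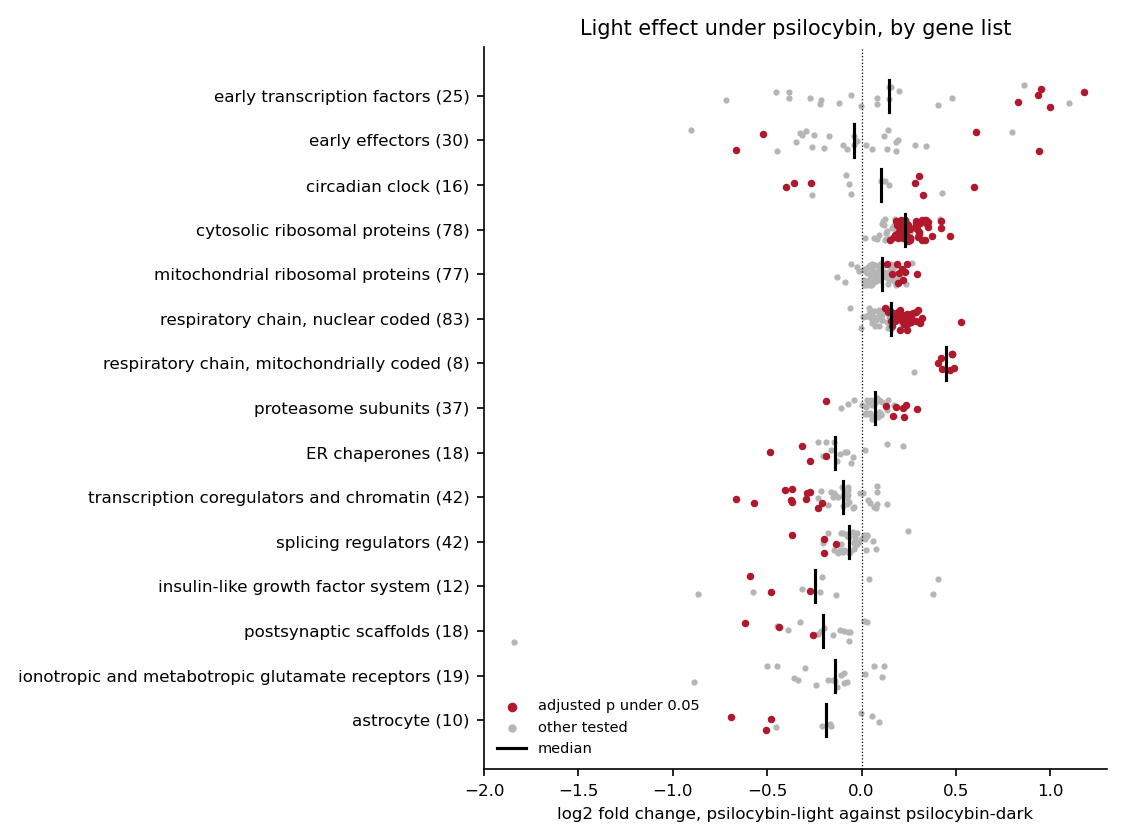
Log2 fold change of psilocybin-light against psilocybin-dark mice (x axis) for each tested member of 15 gene lists (rows, number of members in brackets), with called genes in red, other genes in grey and the list median as a bar. Called ribosomal and respiratory chain genes lie right of 0, called coregulators left of 0, and early genes on both sides.

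The same exposure was compared in PBS mice to see which of these changes belong to light with and without the drug. Without drug, 4611 genes differed (31.9%), 2229 higher in light (15.4%) and 2382 lower (16.5%), with a median size of change of 0.38 (log2) among them. Of the 923 genes called under psilocybin, 435 were called in the same direction without drug (188 higher, 247 lower), which is 47.1% of the former and 9.43% of the latter. A further 17 were called in opposite directions and 471 under psilocybin only. The sign was the same for 84.9% of the 923 and for 64.5% of all genes tested. Across all genes the 2 effects were correlated, with Pearson's r at 0.40 and Spearman's rho at 0.38, over genes that share libraries and the length and GC slopes above. Junb (1.18 with drug, 1.03 without), Canx (-0.31 and -0.28), Gfpt1 (-0.26 and -0.32) and Larp1 (-0.24 and -0.25) had effects of nearly equal size.

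The difference between the effects was tested as an interaction. It was called for 1266 genes (8.75%) of all tested and for 137 of the 923 (14.8%), 91 of which had opposite signs with and without drug. Among early genes, Arc rose by 2.83 on the log2 scale in PBS mice, from a median of 1185 (617 to 1454) to 7071 (4915 to 13570), so that the difference of its 2 effects was -2.03 (adjusted p = 0.00554). The difference was -1.48 for Egr1 (adjusted p = 0.00756), -1.42 for Npas4 (0.0282) and -1.25 for Fosb (0.0429). In each of the 4, psilocybin-dark mice had a higher median than PBS-dark mice, as for Egr1 with 7698 against 2285. Junb, Fos, Ier2, Btg2, Ccn1 and Dusp1 did not pass the interaction test (adjusted p from 0.413 to 0.843), which does not show that their effects were equal. Bdnf rose by 0.53 without drug and fell under psilocybin, a difference of -1.19 (adjusted p = 0.00333), and Pcsk1 differed by -0.86 (0.0103).

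Of all genes called under psilocybin, Mapk4, Bmal1, Etv6 and Syt3 had the smallest interaction p. Mapk4, an atypical MAP kinase, fell from a median of 2251 (1944 to 2458) to 1717 (1561 to 1782) under psilocybin and rose from 1352 (1083 to 1680) to 2043 (1756 to 2156) without drug, a difference of -0.94 (adjusted p = 0.000417). Bmal1 differed by -0.69, falling with drug and rising by 0.33 without. Etv6, an ETS repressor, fell by 0.47 and rose by 0.80, and Syt3, a synaptotagmin, rose by 0.16 and fell by 0.29. Each of these 4 had opposite directions in the 2 sets of mice, but under psilocybin Syt3 did not pass when any one of libraries 7 to 11 or 20 to 23 was left out (adjusted p up to 0.193), nor Etv6 without library 10 or 23 (up to 0.109). Crebbp, Top1, Hdac5 and Igf1r did not pass without drug, and the interaction was called for all 4 (differences of -0.61, -0.27, -0.31 and -0.59). It was also called for Sdhb (0.18) and Psmb1 (0.21). The study picked all of these genes from the same libraries as changed only by psilocybin and light together. Their calls here are therefore not independent of that choice. By list, the interaction was called for 7 of 25 early factors, 12 of 30 early effectors and 7 of 42 coregulators. It was called for 6 of 83 nuclear respiratory chain genes and 1 of 78 cytosolic ribosomal proteins. The share over all genes tested was 8.75%, which these last 2 lists did not exceed. PBS libraries also stood apart, with cerebellar marker sums of up to 81020 in the dark (median 2757) and 23410 in light (median 940), and a glutamatergic marker sum as low as 37090 in the dark (median 83900). With the cerebellar marker score as a covariate the interaction was called for 2016 genes, and for 834 to 2092 when each library was left out. Hippocampal marker genes were raised in PBS-dark mice, with sums of 4181 to 7540 against 1798 to 4410 in PBS-light mice. With the hippocampal marker score as a covariate, no gene was called for the interaction (edgeR, 1294 genes at an unadjusted p under 0.05). With it, 389 were called without drug and 1093 under psilocybin.

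**Figure D5:**
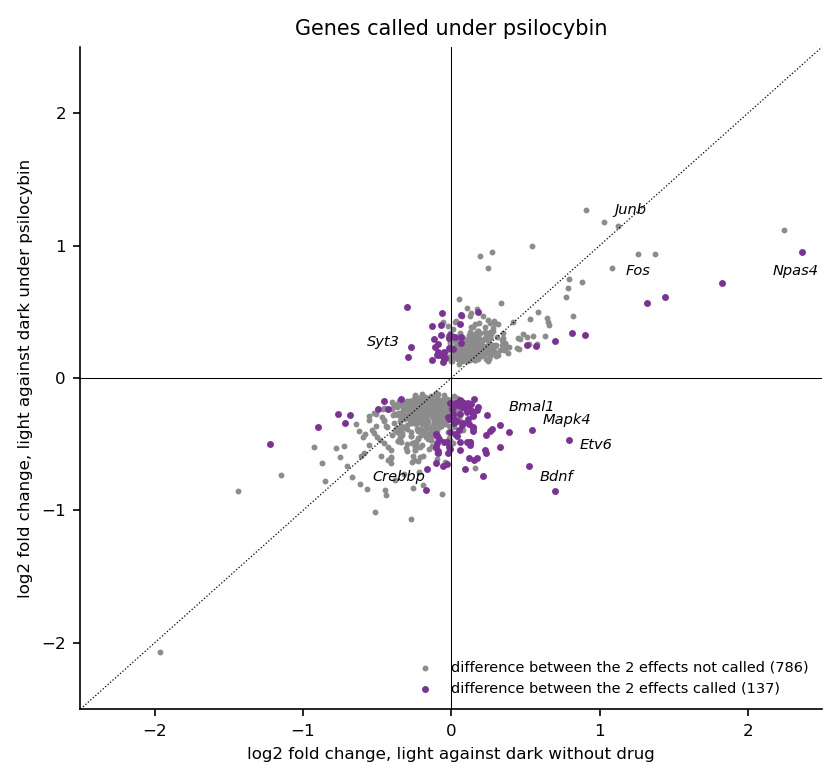
Log2 fold change of light against dark without drug (x axis) and under psilocybin (y axis) for the 923 genes called under psilocybin, with the 137 genes called for the difference between the effects in purple. The dotted line marks equal effects. Junb lies on it, Npas4 far to its right, and Bdnf, Etv6, Mapk4 and Bmal1 lie at a rise without drug and a fall with it.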

How the data were processed

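RNA of the visual cortex was sequenced from 24 mice, 1 library each. The authors enriched poly-A RNA, trimmed reads with cutadapt, mapped them with STAR and deposited raw counts per Ensembl gene from HTSeq, with no normalization. The paper's methods name GRCm39 and the submitters' processing notes mm10. Versions and the strand setting are not given in the sources used here. No column of another series was present (0 columns left unmapped).

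From these counts, R 4.3.3 with edgeR 4.0.16 was used. Genes whose highest count reached 30 were kept (14464 of 55414 listed), libraries were scaled by TMM, and the quasi-likelihood test was run on all 24 libraries in 1 model of the 4 groups (two-sided, Benjamini-Hochberg adjustment over all genes tested, threshold 0.05, common biological coefficient of variation 0.182). The errors of log2 fold changes are SEs from this fit. Normalised counts are per 16058000, the mean of the effective library sizes. The interaction is the light effect under psilocybin less that without drug. Principal components used log2 values with a prior count of 2. Exon length and GC content came from GENCODE M39, which names 14427 of the tested genes. Tables and figures used Python 3.11.15 and matplotlib 3.10.9. The fit was checked on simulated counts with known changes. Counts of every pair of mice within a group differed by more than sampling noise (chi-square per degree of freedom from 3.02 to 109.8 over 60 pairs). P-values measure the spread between these mice, as each library is taken to be 1 animal.

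The libraries compared, the gene lists and the tests were chosen with earlier results of these data known. Named genes were the 8 with the smallest p and the 6 with the largest fold change in each direction (mean normalised count of at least 50 and no overlap), the study's named genes, called list members, and the 4 called genes with the smallest interaction p. From the long lists, a few called members are given, and a few genes the rule picks are not reported here. Alternatives were DESeq2 1.42.0, its size factors in edgeR, filterByExpr, no filter, only the groups compared and 1 surrogate variable (sva 3.50.0). Further ones were the hippocampal or cerebellar marker score (mean log2 level of the markers) as a covariate, offsets for exon length and GC content, stricter thresholds and each library left out. Leaving out libraries 9, 12 and 23 together, and the offsets without library 12, were added after seeing the data.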

Additional observations from a re-analysis of the deposited data

Results flagged for a closer look

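Single mice stood apart from the other 5 of their group, by the ratio of the gap to the range, in 11 of 146 groups of values (73 named genes in both groups), and chance alone flags about 1 in 20. Library 21 was high for Arc (14940 against 8352 to 10190, ratio 0.722) and low for Rpl38 (0.633) and Crebbp (0.728). Library 12 was low for Pdia4 (0.718) and Slc1a2 (0.668) and high for Mcc (435 against 236 to 290, 0.729). Library 23 was high for Gja1 (2807 against 1921 to 2149, 0.743) and low for Etv6 (0.69). Library 8 was low for Irs1 (0.659) and Afap1 (0.742), and library 22 was low for Irs1 (0.642).

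The light effect under psilocybin differed from that without drug, by the interaction test, for 27 of the 73 named genes. As differences of log2 fold change, the effect was lower under psilocybin for Arc (-2.03), Egr1 (-1.48), Npas4 (-1.42), Etv6 (-1.27), Fosb (-1.25), Bdnf (-1.19), Mapk4 (-0.94), Pcsk1 (-0.86), Bmal1 (-0.69), Dpysl2 (-0.67), Slc1a2 (-0.63), Crebbp (-0.61), Igf1r (-0.59), Pdia4 (-0.55), Nfil3 (-0.55), Afap1 (-0.54), Sox9 (-0.53), Shank2 (-0.47), Per3 (-0.42), Hdac5 (-0.31) and Top1 (-0.27). It was higher for Syt3 (0.45), mt-Nd1 (0.41), Bhlhe41 (0.39), Ndufa2 (0.29), Psmb1 (0.21) and Sdhb (0.18). Many of these genes were among those the study or the named-gene rule picked for this contrast, so the share of 27 in 73 is a description.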

How the results depend on the processing

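The count of 923 genes called under psilocybin was 463 with no filter, 512 with length and GC offsets (557 with library 12 also left out), 383 without libraries 9, 12 and 23, 332 at an adjusted p under 0.01 and 7 when the log2 fold change had to reach 1 in size. It was 1688 with only the groups compared in the fit, 1831 with the cerebellar covariate, 1952 with 1 surrogate variable, and 585 to 1249 when each library was left out. For light without drug (4611), it was 389 with the hippocampal covariate, 3073 with only the groups compared, 2853 and 664 under the stricter thresholds and 3937 to 5010 with each library left out. For the interaction (1266), it was 759 with no filter, 2875 with 1 surrogate variable, 0 with the hippocampal covariate, 2016 with the cerebellar covariate, 320 and 330 under the stricter thresholds and 834 to 2092 with each library left out. The cause of these shifts was not tested, except that a stricter threshold lowers a count by construction. Fits with libraries left out also hold fewer mice, and the part of that in the shifts was not tested. DESeq2 called 1197 genes under psilocybin, and no named gene changed direction under any alternative. No paired analysis was possible because the groups share no replicate numbers. Depth limits genes at low counts, of which Slc4a11 and Gm13340 are the lowest named.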

Other observations

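Most receptor, channel and cell type marker genes did not pass the test in this contrast, nor did most genes tested (6.38% called). None of 19 glutamate receptor genes was called under psilocybin (median log2 fold change -0.14, edgeR). Of 12 serotonin receptor genes, 1 was lower (3.78% of all genes tested). It was Htr1b, the presynaptic 5-HT1B receptor, which had 230 to 333 normalised counts in psilocybin-dark mice (median 261) and 108 to 197 in psilocybin-light mice (median 167), a log2 fold change of -0.75 ± 0.19 (adjusted p = 0.0175). The effect without drug was -0.67, and the interaction did not pass (adjusted p = 0.90). Of 46 voltage-gated channel genes 1 was lower, of 20 cytosolic heat shock genes 1, of 17 glucocorticoid-responsive genes 1 and of 9 nuclear long noncoding RNAs 1. Beside these, 3.78% of all genes tested were lower, so such counts do not set these lists apart.

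The summed levels of cortical cell type markers overlapped between the groups for glutamatergic neurons (75550 to 105000 in the dark, 86930 to 104900 in light), GABAergic neurons (28200 to 33210 and 29350 to 32190), oligodendrocytes (45190 to 89970 and 48730 to 103200) and microglia (5947 to 7912 and 6841 to 7731). No member of these 4 lists, of 21, 20, 12 and 10 genes, was called, where 6.38% of all genes tested were. Choroid plexus genes were raised in library 19, with a sum of 1002, and thalamic ones in library 23, with 3110.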
